A study of Mus musculus with 12 samples.

Results

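The genes that carry out and regulate the synthesis and transport of bile acids were followed in mouse liver with Mettl5 (wild type, WT) and without it (knockout, KO), at the level of RNA and at the level of ribosome occupancy. They were the 10 genes Cyp7a1, Cyp8b1, Cyp27a1, Cyp7b1, Slc27a5, Baat, Slc10a1, Abcb11, Nr1h4 and Nr0b2, chosen by name, and all 10 were among the 10607 genes of the deposited table of normalized values. METTL5 is the enzyme that methylates an adenosine of 18S rRNA, the RNA of the small ribosomal subunit, and the libraries ask which liver transcripts gain or lose ribosomes without it. There were 3 WT and 3 KO mice, forming 3 litters with 1 mouse of each genotype. From each liver, total RNA of the lysate was sequenced (input), and so were the stretches of RNA that ribosomes shield from nuclease (ribosome-protected fragments, RPF). All livers were snap-frozen and lysed with cycloheximide, which holds ribosomes in place. In the KO, exon 2 of Mettl5, floxed in ES cells of an F1 hybrid of C57bl/6 x 129S6 and backcrossed to the B6 strain, was deleted in the whole body with a CMV-cre line. The study used both sexes and a range of ages from weeks to months. The sex and age of each of these mice and whether the WT mice carried Cre were not given in the sources used here.

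Bile acids are made from cholesterol in hepatocytes. In the classic pathway CYP7A1 takes the first and rate-limiting step and CYP8B1 adds the hydroxyl group that sets the share of cholic acid, while in the alternative pathway CYP27A1 and CYP7B1 act on oxysterols. The products are joined to coenzyme A and conjugated, mainly with taurine in mice, then pumped into the bile canaliculus and taken up again from portal blood, and the nuclear receptor FXR (Nr1h4) senses them and raises SHP (Nr0b2), a repressor of Cyp7a1 and Cyp8b1.

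The reads assigned to the table's genes ranged from 2398804 to 5121304 per input library and from 4623826 to 9184242 per RPF library. Mettl5, the deleted gene, had 15.7 to 38.5 normalized reads in WT input and 7.995 to 9.30 in KO input, and 47.8 to 58.4 in WT RPF against 5.53 to 9.56 in KO RPF (log2 change in RPF −2.64 ± 0.36, SE, limma, adjusted p = 0.0050), as the labels give it. It did not pass in input (−1.59 ± 0.46, edgeR, adjusted p = 0.999), where WT libraries held 12 to 21 of its read pairs. Nor did its ratio of RPF to input pass (−1.16 ± 0.51, limma, adjusted p = 0.998). One library stood apart: 18S rRNA took 45.8% of the counts in the input of KO mouse 1 and 59.1% to 63.8% in the other 5. Hepatocyte markers made up 66089.8 to 86563 CPM of the input (rRNA genes and Lars2 left out of the total), and cholangiocyte markers 23.5 to 32.5. Xist was at 0 counts in all 6 mice, while the 4 Y-linked genes Ddx3y, Uty, Kdm5d and Eif2s3y had counts in all 6.

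Since the question is one of translation, the sequence around each start codon is shown first, read from the GENCODE transcripts of mm10, with the start codon in capitals, 12 bases before it and 12 after it.
Cyp7a1: tgcttttgcaaaATGatgagcatttct
Cyp8b1: tggagcctagccATGacgctgtggtgt
Cyp27a1: cgggcacgatccATGgctgcgtggagc
Cyp7b1: cagctcgtcgggATGcagggagccacg
Slc27a5: agagccaatgccATGggtatttggaag
Baat: cctctgcaaaaaATGgccaagctgaca
Slc10a1: ctgggtcggaggATGgaggcgcacaac
Abcb11: attgcagacaccATGtctgactcagtg
Nr1h4: aggaagctaaggATGgtgatgcagttt
Nr0b2: aagatactaaccATGagctccggccag
A purine 3 bases before the start codon, the strongest element of the Kozak context, was present in 9 of the 10, against 87.3% of 8879 genes, and Cyp27a1 was the exception. A G directly after the start codon was present in 5 of the 10, against 53.6%. An ATG upstream in the 5′ UTR was present in Slc27a5 and Abcb11, that is in 2 of 10 against 50.4% of genes. The median GC content of the coding sequences (CDS) was 49.8%, against 52.6%.

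Between genotypes, none of the 10 genes passed an adjusted p of 0.05 in input, in RPF or in their ratio, the translation efficiency (TE), nor did any with DESeq2 on input or with edgeR on the RPF reads. The background of calls was low as well. In input edgeR called 0% of 10057 genes tested, in RPF limma called 44 of 8994 (0.489%), and in TE limma called 0% of 8994. At an unadjusted p under 0.05, 0 of the 10 genes stood in input, where 3.46% of all genes did, and 2 stood in RPF, where 13.4% of all genes did. In TE without a term for mouse, 0 of the 10 stood below that limit, against 4.7% of all genes. With a term for mouse, Baat, Nr1h4 and Cyp7a1 stood below it (limma, unadjusted p = 0.021, 0.025 and 0.048). Their adjusted p-values in that fit were 0.509, 0.518 and 0.579. The share of all genes below the limit was not counted for that fit, and the 4.7% belongs to the fit without the term. These genes therefore cannot be set against a background. The median change of the 10 genes on the log2 scale was −0.0086 in input, −0.14 in RPF and −0.10 in TE, against −0.00037, −0.03 and −0.01 over all genes tested. The SE of a gene's log2 change was 0.14 to 0.74 in input and 0.12 to 0.72 in RPF, and in both it was largest for Cyp7a1, Nr0b2 and Cyp7b1.

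**Figure D1:**
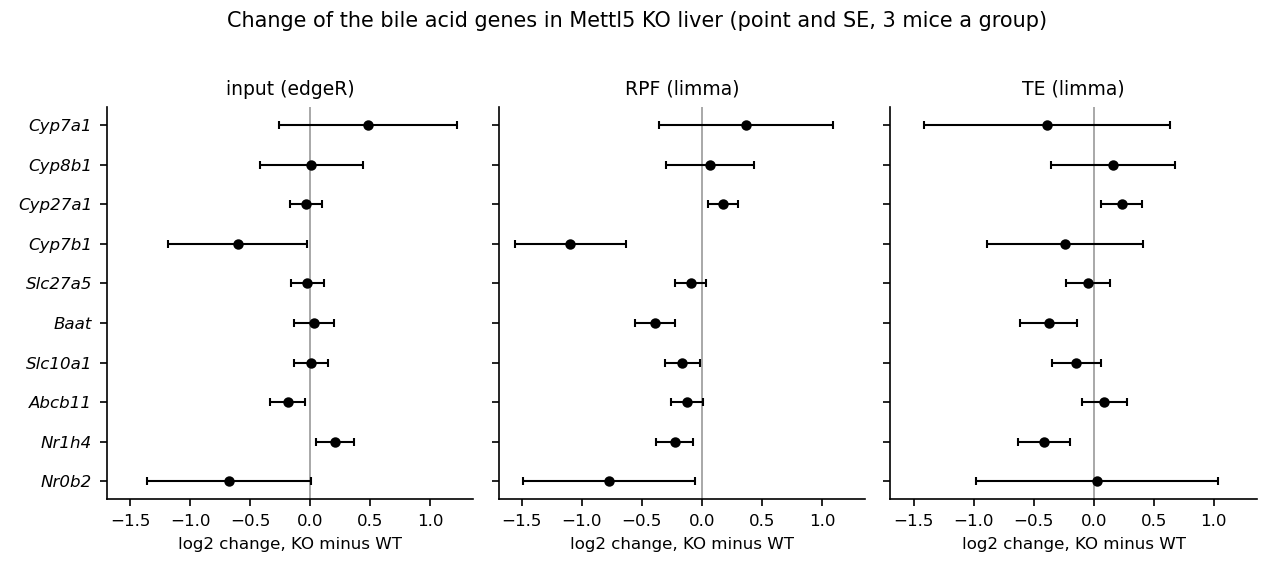
Log2 change (KO minus WT) of each bile acid gene in input, RPF and TE, with points for the estimate and bars for its SE (3 mice a group). The estimates of Cyp7b1 (−1.10) and Baat (−0.39) in RPF lie farthest from 0 relative to their SE, and the bars of Cyp7a1 and Nr0b2 are wide in all 3 panels. The TE bars are from the fit without a term for mouse. With that term the SE in TE was 0.19 for Cyp7a1 and 0.21 for Nr0b2.

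Where values of the 3 KO mice and the 3 WT mice did not overlap, this was read against how often that happened over all genes. In RPF every KO value was lower than every WT value for 2 of the 10 genes (Cyp7b1 and Baat), against 12.9% of all genes, and higher for 1 (Cyp27a1), against 6.97%. In input the KO was lower throughout for 1 gene (Abcb11), against 5.6%, and higher for 0, against 3.65%. In TE it was lower for 2 (Baat and Nr1h4), against 7.34%, and higher for 1 (Cyp27a1), against 6.09%.

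**Figure D2:**
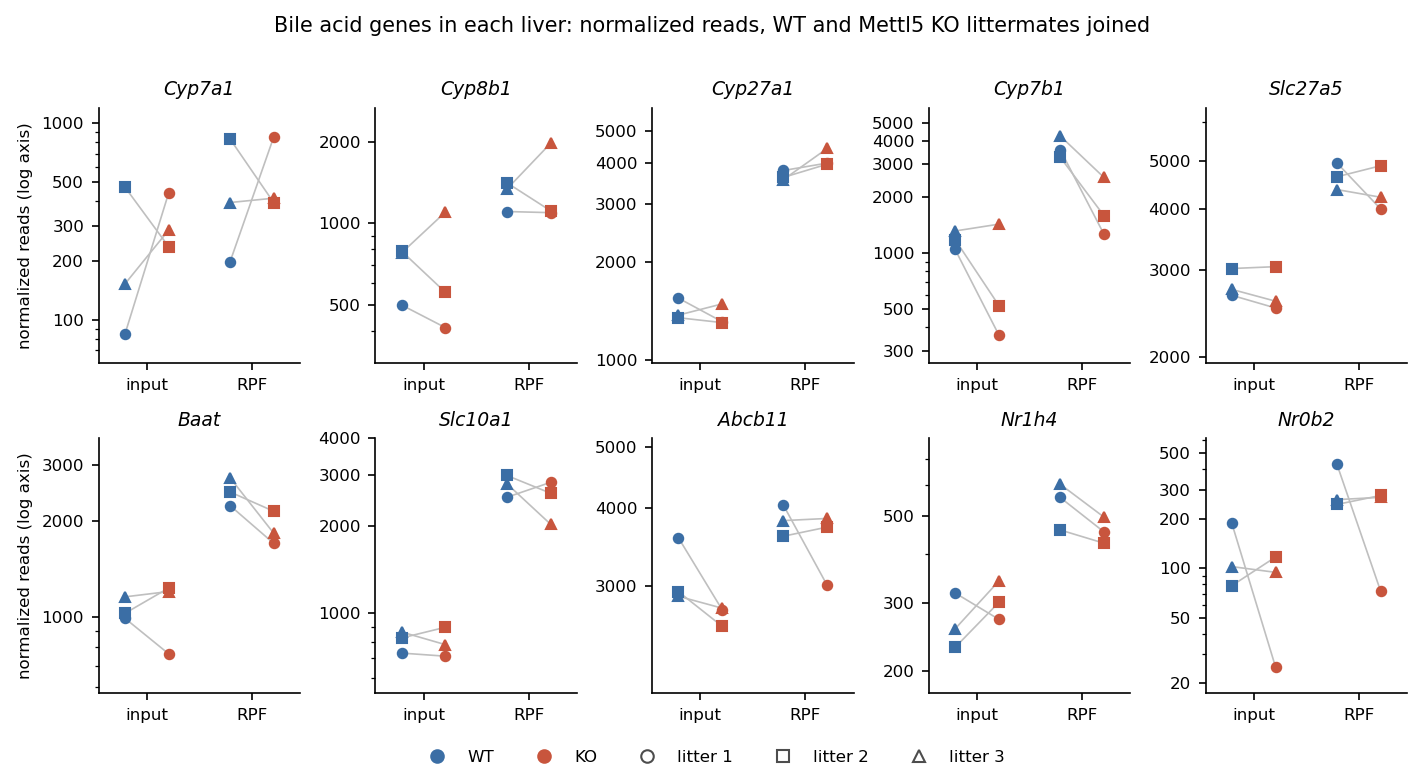
Normalized reads of each bile acid gene (log axis, different for each gene) in input and RPF, 1 point per mouse, WT in blue, KO in red, with symbols for litters and lines joining littermates. Cyp7b1 RPF lies between 3265 and 4244 in WT and between 1261 and 2542 in KO, whereas Cyp7a1 and Nr0b2 spread widely within both genotypes.

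Cyp7a1 (chr4:6265612-6275633, minus strand, 6 exons, mm10), the rate-limiting enzyme, varied more between mice than between genotypes. Its input was 84.4, 473 and 152 normalized reads in WT mice 1, 2 and 3, and 443, 235 and 286 in KO mice 1, 2 and 3. Its RPF was 197, 833 and 395 in WT and 854, 394 and 416 in KO. WT mouse 1 was the lowest and WT mouse 2 the highest in input, so that the KO values lay inside the WT range, and KO mouse 1 was as high as WT mouse 2 in both assays. In litter 1 the KO was higher, in litter 2 lower and in litter 3 higher, with log2 differences of 2.39, −1.01 and 0.91 in input. The log2 change was 0.48 ± 0.74 (SE) in input (edgeR, adjusted p = 0.999) and 0.37 ± 0.72 in RPF (limma, adjusted p = 0.871). Leaving out 1 mouse moved the input value between 0.093 (without WT mouse 1) and 1.46 (without WT mouse 2), and the RPF value between −0.14 and 0.89 for the same 2 mice.

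The RPF of Cyp7a1 followed its RNA. Between the lowest and highest of the 6 mice it differed 5.61-fold in input and 4.33-fold in RPF, but 1.79-fold in TE. TE, as normalized RPF over normalized input, was 2.33, 1.76 and 2.60 in WT mice and 1.93, 1.67 and 1.45 in KO mice. It was lower in the KO in 3 of 3 litters, but the groups overlapped, and the log2 change was −0.39 ± 1.02 (limma, adjusted p = 0.998). With a term for mouse, which makes TE a within-mouse measure, the SE fell to 0.19 and the adjusted p was 0.579.

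Cyp7a1 is known to cycle over the day, and the clock genes of these livers were not at 1 level. Dbp, a clock output gene named here after its values were seen, had 6.26, 23.9 and 1.89 CPM in WT mice 1, 2 and 3 and 2.74, 13.5 and 0 in KO mice 1, 2 and 3. Arntl, also named after its values were seen, ran the other way, at 14.4, 7.39 and 14.4 CPM in WT and 19.0, 12.0 and 22.5 in KO. Summed over 15 clock genes, input held 384 to 469 CPM in WT and 310.4 to 479.9 in KO, but a sum cannot show differences that run opposite ways. None of the 13 clock genes tested in input passed in edgeR, and Hlf, the clock gene with the smallest p in RPF, had a log2 change of −0.47 ± 0.27 (limma, adjusted p = 0.476). The part of the time of sampling in the spread of Cyp7a1 was not tested.

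Cyp8b1 (chr9:121914356-121916305, minus strand, a single exon), the sterol 12-alpha-hydroxylase, had an input of 499, 788 and 778 in WT and 412, 556 and 1100.1 in KO. Its RPF was 1105, 1412 and 1335 in WT and 1094, 1112 and 1972 in KO. KO mouse 3 was the highest of the 6 in both assays and the other KO mice lay in the lower part of the WT range or below it, so the groups overlapped. The log2 changes were 0.01 ± 0.43 in input (edgeR, adjusted p = 0.999) and 0.07 ± 0.36 in RPF (limma, adjusted p = 0.951). Without KO mouse 3 they were −0.49 and −0.21, with adjusted p-values of 0.9999 and 0.846. TE was 1.72 to 2.21 in WT and 1.79 to 2.66 in KO, and higher in the KO in 3 of 3 litters.

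In the alternative pathway, Cyp27a1 (chr1:74713574-74737892, plus strand, 9 exons), the mitochondrial sterol 27-hydroxylase, was among the most even genes of the liver. Its input was 1548, 1349 and 1374 in WT and 1312, 1304 and 1487 in KO. Its RPF was 3793, 3614 and 3558 in WT and 3996, 3965 and 4429 in KO. Every KO mouse had more RPF than every WT mouse, by 0.17 ± 0.12 on the log2 scale, without passing the test (limma, adjusted p = 0.560). TE was 2.45, 2.68 and 2.59 in WT and 3.05, 3.04 and 2.98 in KO, again without overlap, with a log2 change of 0.23 ± 0.17 (limma, adjusted p = 0.998). With the normalized values, its within-genotype SD of log2 TE was 0.05, lower than that of all but 0.178% of 8994 genes, whose median was 0.33. As RPKM (table's total reads, exon length for input, CDS length for RPF), RPF over input was 2.88 ± 0.077 in WT and 3.58 ± 0.589 in KO (SD, n = 3). On that scale the ratios of the groups overlapped and the KO mice were less even, while the order of the means was kept. RPF itself stayed without overlap there (452 to 470 in WT, 520 to 627 in KO).

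Cyp7b1 (chr3:18071950-18243338, minus strand, 6 exons), the oxysterol 7-alpha-hydroxylase and a gene known for higher expression in male mouse liver, had the lowest RPF in the KO relative to WT of the 10. Its RPF was 3582, 3265 and 4244 in WT and 1261, 1586 and 2542 in KO, so that the KO mean (1796 ± 666, SD, n = 3) was 2.06-fold lower than the WT mean (3697 ± 499.6). All 3 KO mice lay below all 3 WT mice, and the KO was lower in 3 of 3 litters. The log2 change was −1.10 ± 0.46, with an unadjusted p of 0.042 and an adjusted p of 0.356 in limma. In bulk liver, fewer cells that express a gene and less RNA in each of them cannot be told apart.

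The input of Cyp7b1 was split within the KO. It was 1046, 1180.2 and 1314 in WT and 364, 524 and 1429.5 in KO mice 1, 2 and 3. KO mice 1 and 2 lay far below the WT, whereas KO mouse 3 was the highest of all 6, so the groups overlapped and the log2 change was −0.61 ± 0.58 (edgeR, adjusted p = 0.999), and −0.26 without KO mouse 1. As RPKM over exon length, KO mouse 3 (151) lay inside the WT range (109.7 to 153) and was not the highest. The same mouse had a TE of 1.78, against 2.77 to 3.47 in the other 5. The counts behind it were not few, with 894 read pairs in input and 2660 reads in RPF.

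The call for Cyp7b1 depended on 1 mouse. Without KO mouse 3 its log2 change was −1.39 ± 0.18 in input (edgeR, adjusted p = 0.011) and −1.38 ± 0.18 in RPF (limma, adjusted p = 0.0025), and it passed in both, where 0.0481% of 10391 genes and 0.123% of 8968 genes passed. Without any other of the mice it did not pass, and its RPF change lay between −1.18 and −0.87 on the log2 scale. The change in TE without KO mouse 3 was 0.05 ± 0.26 (limma, adjusted p = 0.9998). Cyp7b1 also had the lowest CDS GC content of the 10, at 42.9%, and over 8984 genes the RPF change rose with CDS GC content (Spearman's rho 0.456, a description across genes of the same libraries). With that trend removed its RPF change was −0.86 ± 0.50 (limma, adjusted p = 0.670).

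The next step is activation and conjugation. Slc27a5 (chr7:12988346-12998192, minus strand, 10 exons), the bile acyl-CoA synthetase of the liver, had an input of 2671, 3027 and 2746 in WT and 2517, 3053 and 2598 in KO. Its RPF was 4951, 4643 and 4374 in WT and 3995, 4889 and 4220.2 in KO. The groups overlapped in both assays, with log2 changes of −0.02 ± 0.14 (edgeR, adjusted p = 0.999) and −0.10 ± 0.13 (limma, adjusted p = 0.799). Its 6 input values lay within 1.21-fold of each other.

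Baat (chr4:49489422-49506557, minus strand, 4 exons), the enzyme that joins bile acids to taurine or glycine, had less RPF in every KO mouse than in any WT mouse, while its input overlapped. Its RPF was 2242, 2474 and 2743 in WT and 1702, 2150.3 and 1832 in KO, which is 2486 ± 251 against 1895 ± 231 (SD, n = 3). Its input was 989, 1025 and 1155 in WT and 764, 1232 and 1201 in KO, with KO mouse 1 the lowest and the other 2 KO mice the highest. The RPF change was −0.39 ± 0.17 on the log2 scale (limma, unadjusted p = 0.029, adjusted p = 0.311), lower in the KO in 3 of 3 litters. With the litter as a block the adjusted p was 0.118, and with the CDS GC trend removed the change was −0.27 ± 0.17 (adjusted p = 0.681). Scaled instead to the table's total reads and to CDS length (RPKM), RPF of Baat was 339 to 459.6 in WT and 281 to 387 in KO, so the groups overlapped on that scale while the order of the means was kept. TE was 2.27, 2.41 and 2.37 in WT and 2.23, 1.75 and 1.53 in KO, without overlap, with a log2 change of −0.38 ± 0.24 (limma, adjusted p = 0.998). A term for mouse gave an adjusted p of 0.509.

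Of the transporters, Slc10a1 (chr12:80953183-80968705, minus strand, 6 exons), the sodium-dependent uptake carrier NTCP, had an input of 730.1, 823 and 863 in WT and 712, 896 and 780.3 in KO. Its RPF was 2506, 2980.2 and 2794 in WT and 2821, 2589 and 2026 in KO. The genotypes overlapped in both, KO mouse 3 being the lowest of the 6 in RPF, and the log2 changes were 0.0061 ± 0.14 (edgeR, adjusted p = 0.999) and −0.17 ± 0.14 (limma, adjusted p = 0.665).

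Abcb11 (chr2:69238282-69342616, minus strand, 29 exons), the canalicular bile salt export pump, had an input of 3582, 2942 and 2893 in WT and 2753, 2592 and 2769.5 in KO. The KO was below the WT in all 3 litters, by 0.19 ± 0.14 on the log2 scale in the fit (edgeR, adjusted p = 0.999), although as RPKM over exon length the ranges overlapped (142 to 158 in WT, 123 to 159 in KO). Its RPF was 4034, 3603 and 3815 in WT and 3009, 3725 and 3845 in KO, and only KO mouse 1 lay below the WT mice. The RPF change was −0.12 ± 0.13 (limma, adjusted p = 0.744), and it turned to 0.04 ± 0.14 with the CDS GC trend removed. No exon base of the other 9 genes was shared with another gene of the count file. For Abcb11, 3.01% was shared with genes on the opposite strand.

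Of the regulators, Nr1h4 (chr10:89454234-89533585, minus strand, 9 exons), the bile acid receptor FXR, had an input of 317, 230.4 and 257 in WT and 272, 300.4 and 341 in KO. Its RPF was 557, 459.9 and 602 in WT and 455, 425 and 496 in KO. RNA was higher in the KO in 2 of 3 litters and RPF lower in 3 of 3, with log2 changes of 0.20 ± 0.16 (edgeR, adjusted p = 0.999) and −0.23 ± 0.15 (limma, adjusted p = 0.549). TE was 1.75, 2.00 and 2.34 in WT and 1.67, 1.42 and 1.46 in KO. The KO values all lay below the WT values, WT mouse 1 by little, and the log2 change of −0.42 ± 0.22 had the smallest p of the 10 in TE (unadjusted p = 0.072, adjusted p = 0.998 in limma). A term for mouse gave an adjusted p of 0.518.

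Nr0b2 (chr4:133553376-133556536, plus strand, 2 exons), which encodes SHP, spread as widely as Cyp7a1. Its input was 187, 78.4 and 102 in WT and 25.0, 117 and 94.3 in KO, and its RPF was 428, 244 and 261 in WT and 72.3, 277 and 269.5 in KO. Litter 1 held both extremes, WT mouse 1 being the highest and KO mouse 1 the lowest, and the other 4 mice lay close together. The log2 changes were −0.68 ± 0.68 (edgeR, adjusted p = 0.999) and −0.77 ± 0.71 (limma, adjusted p = 0.702). Leaving out 1 mouse moved them between −1.14 (without KO mouse 2) and −0.17 (without KO mouse 1) in input, and between −1.10 and −0.14 in RPF for the same 2 mice. Over the 6 mice the highest was 7.49-fold above the lowest in input and 5.92-fold in RPF, against 1.36-fold in TE. The lowest input value rested on 38 read pairs, in KO mouse 1, the deepest input library.

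The 2 genes at the ends of this loop, the repressor Nr0b2 and its target Cyp7a1, stood in nearly opposite order over the mice, a pair singled out after its values were seen. WT mouse 1 had the most Nr0b2 and the least Cyp7a1 in both assays, and KO mouse 1 had the least Nr0b2 and was among the highest 2 for Cyp7a1. In input the littermates differed in opposite directions in 3 of 3 litters, and in RPF in 2 of 3. Over the 6 mice Pearson's r of the log2 values was −0.77 (exact permutation p = 0.076) and Spearman's rho −0.89 (exact permutation p = 0.033) in input. In RPF r was −0.77 (exact permutation p = 0.071) and rho −0.94 (exact permutation p = 0.017). Without the 2 mice farthest from the median of Cyp7a1 r was −0.81 in input and −0.90 in RPF. In input KO mouse 1, the lowest in Nr0b2, was still among the mice kept. In RPF the mice kept held only 244 to 277 normalized reads of Nr0b2. With so few mice, these values cannot show whether the relation holds without the extremes. Cyp8b1, the other target of this repressor among the 10, did not stand in opposite order to Nr0b2. For that pair r was 0.31 and rho −0.086 in input, and r was 0.21 and rho 0.029 in RPF. Among the 45 pairs of the 10 genes examined in each assay, Benjamini-Hochberg adjustment left p-values of 0.688 and 0.500 in input and of 0.368 and 0.375 in RPF for Cyp7a1 and Nr0b2, and 0 of 45 pairs passed in either assay.

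**Figure D3:**
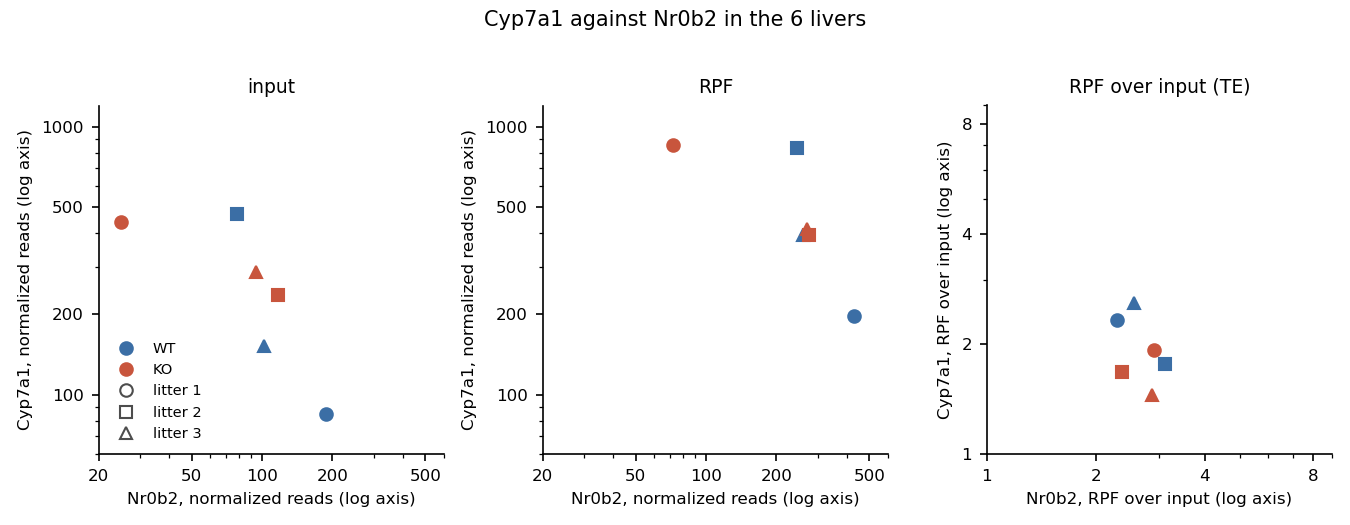
Cyp7a1 against Nr0b2 in the 6 livers, as normalized reads in input and in RPF and as RPF over input (both axes log). In input and RPF the points run from WT mouse 1 at the lower right to KO mouse 1 at the upper left, while the ratios of both genes lie within a 1.79-fold and a 1.36-fold range.

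The pairs with an unadjusted exact permutation p under 0.05 for both measures, which Cyp7a1 and Nr0b2 did not reach, were Cyp8b1 and Cyp7b1 in input (r = 0.82, rho = 0.89, adjusted p = 0.688 and 0.500) and Cyp27a1 and Baat in RPF. For the latter no pooled value is given, because WT and KO mice formed separate clusters in both genes. Abcb11 and Nr0b2, both known FXR targets, had r = 0.98 and rho = 0.83 in RPF (exact permutation p = 0.0069 and 0.058, adjusted p = 0.313 and 0.375). Without the 2 mice farthest from the median of Abcb11 r fell to 0.66, so much of that relation rested on them. In input the same pair had only r = 0.50 and rho = 0.26 (exact permutation p = 0.269 and 0.658).

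Because both are FXR targets whose RPF had this relation, the 250 bases upstream of their starts are shown, from RefSeq's GRCm38.p6 (mm10) promoters, which held 6 of the 10 genes. In Abcb11 (chr2:69342617-69342866, minus strand) the capitals mark an inverted repeat of AGGTCA spaced by 1 base (IR-1), the kind of element FXR binds, found with 1 mismatch allowed and starting 63 bases before the start. In Nr0b2 (chr4:133553126-133553375, plus strand) they mark TATAAA, 28 bases before the start.
Abcb11: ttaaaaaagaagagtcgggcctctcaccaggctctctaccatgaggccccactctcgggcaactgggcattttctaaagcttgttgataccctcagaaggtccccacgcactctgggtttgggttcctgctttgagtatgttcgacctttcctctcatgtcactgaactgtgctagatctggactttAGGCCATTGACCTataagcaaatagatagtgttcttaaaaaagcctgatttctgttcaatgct
Nr0b2: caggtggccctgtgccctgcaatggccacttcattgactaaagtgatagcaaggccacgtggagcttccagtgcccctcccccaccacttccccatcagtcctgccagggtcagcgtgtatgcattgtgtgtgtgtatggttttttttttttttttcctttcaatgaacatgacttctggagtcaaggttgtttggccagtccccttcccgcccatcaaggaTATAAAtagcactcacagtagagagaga
Both strands were searched over 300 bases (250 before and 50 after the start), so elements farther upstream were not looked for. The IR-1 was in 0.0822% of 32851 promoters and, of the 6 genes, in Abcb11. TATAAA was in 13.6% of promoters and in 3 of the 6 genes (Nr0b2, Cyp8b1 and Slc10a1). A single AGGTCA, which the IR-1 may contain, was in 16.3% of promoters and in 3 of the 6.

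The 10 genes differed in how evenly the mice of a genotype expressed them, taken as the SD of log2 values within genotypes and ranked among 8994 genes. In input Nr0b2 (SD 0.97) and Cyp7a1 (0.95) exceeded 98.2% and 98.1% of all genes, Cyp7b1 (0.73) exceeded 95.1% and Cyp8b1 (0.58) 89.6%. Cyp27a1 (0.11), Slc27a5 (0.13), Abcb11 (0.13) and Slc10a1 (0.15) exceeded 6.32%, 9.96%, 10.5% and 15.3%, where the median gene had 0.26. In RPF Cyp7a1 (0.86) and Nr0b2 (0.84) again exceeded 98.5% and 98.4%. In TE the SDs of Cyp7a1 (0.25) and Nr0b2 (0.20) were below the median of 0.33, as were those of all the others but Cyp7b1 (0.38).

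Levels were compared between genes as RPKM computed here from the recovered reads, with the table's reads as the total, over exon length for input and CDS length for RPF. In WT input Slc27a5 was the highest, at 282 ± 32.2 (SD, n = 3), followed by Cyp27a1 (159 ± 2.62), Abcb11 (148 ± 8.84), Cyp7b1 (133 ± 22.0), Baat (133 ± 17.2), Slc10a1 (89.6 ± 12.5) and Cyp8b1 (86.9 ± 24.9). Nr1h4 (28.2 ± 3.04), Nr0b2 (25.9 ± 10.4) and Cyp7a1 (14.1 ± 12.7) were the lowest. The ranges of neighbours in that order overlapped for 6 of 9 pairs, and were apart between Slc27a5 and Cyp27a1, between Baat and Slc10a1 and between Cyp8b1 and Nr1h4. In KO input Cyp7b1 moved from rank 4 to rank 7 with a level of 86.8 ± 56.1, and 4 of 9 neighbours were apart.

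In WT RPF the order differed from that of RNA. Slc10a1 was first at 512 ± 62.3, with Cyp7b1 (490.1 ± 86.1), Cyp27a1 (459 ± 9.39), Slc27a5 (452 ± 5.09) and Baat (398 ± 60.2) after it, then Abcb11 (193 ± 10.1) and Cyp8b1 (173 ± 27.8), then Nr0b2 (79.4 ± 22.2), Nr1h4 (74.8 ± 12.0) and Cyp7a1 (63.7 ± 43.7). Only Baat and Abcb11, and Cyp8b1 and Nr0b2, were neighbours without overlap. All 10 genes lay above 84.5% or more of genes in RPF per length, and Slc10a1 above 97.4%.

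The ratio of RPF to input per length separated the transporters. In WT it was 5.72 ± 0.21 for Slc10a1, above 81.9% of 8984 genes, and 1.31 ± 0.11 for Abcb11, above 19.0%, where the median gene had 2.68. Cyp7a1 (5.10 ± 1.10) and Cyp7b1 (3.70 ± 0.49) came next after Slc10a1, and Slc27a5 (1.62 ± 0.20), the highest in RNA, came just before Abcb11. In KO the first 2 and the last 2 places were held by the same genes, with Slc10a1 at 5.41 ± 0.22 and Abcb11 at 1.502 ± 0.44.

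**Figure D4:**
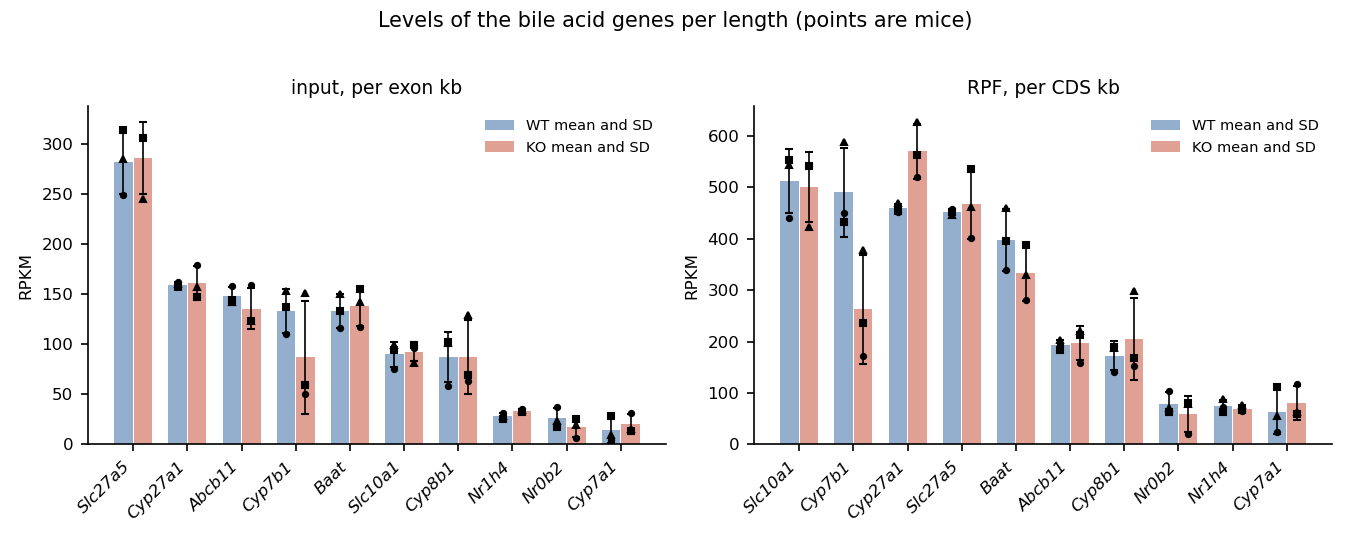
RPKM in input (per exon kb) and RPF (per CDS kb), genes in the order of the WT mean, bars for means with SD and points for mice (3 per genotype). Slc27a5 leads in input and Slc10a1 in RPF, and Nr1h4, Nr0b2 and Cyp7a1 are the lowest 3 in WT in both.

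The wider pathway was read from 6 lists, with 58 genes in all, of which 48 were not among the 10 and 41 of those were tested. None of the 41 passed in input, RPF or TE. In RPF 10 of the 41 were lower and 2 higher in the KO at an unadjusted p under 0.05, where 7.99% of all 8994 genes were lower and 5.4% higher. A change below 0 was seen in 27 of the 41, against 54% of all genes, with a median of −0.12 against −0.03. In input the median was −0.05 against −0.00037, and 1 of the 41 was lower and 0 higher at that limit. There 3.46% of all genes stood below it in either direction. In TE the median was −0.09 against −0.01, and 3 were lower and 0 higher, where 4.7% of all genes stood in either direction. The part of the trend with CDS GC content in the RPF changes of these lists was not tested.

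Of the classic pathway, 5 of 5 genes were tested and 0 stood at an unadjusted p under 0.05 in RPF, the smallest p being that of Hsd3b7 (log2 change 0.25 ± 0.25, limma, adjusted p = 0.711), a steroid dehydrogenase. Of 5 tested hydroxylases of oxysterols and mouse bile acids, 4 were lower in RPF at that limit, against 7.99% of all genes, namely Cyp7b1, Cyp2a12 and, named after their values were seen, Cyp39a1 and Cyp2c70. Cyp2a12, a bile acid 7-alpha-hydroxylase, had 1491 to 1574 normalized reads in WT RPF and 829 to 1109.6 in KO, a log2 change of −0.66 ± 0.15 that missed the threshold (limma, adjusted p = 0.052).

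Of 11 genes for side chain shortening and conjugation, 4 were lower in RPF at that limit and 10 had a change below 0, against 7.99% and 54% of all genes. Scp2, the peroxisomal thiolase and sterol carrier, had 35208 to 38859 normalized reads in WT RPF and 21999 to 25770 in KO, a log2 change of −0.61 ± 0.15 (limma, adjusted p = 0.069). Of 7 uptake transporters, 2 were lower (7.99% of all genes), among them Slco1a1, an organic anion transporter, with 3333 to 3947 in WT RPF and 2235 to 2577 in KO (log2 change −0.55 ± 0.13, limma, adjusted p = 0.060). Of 8 exporters tested, 2 were lower (7.99% of all genes), among them Abcb4, the canalicular phospholipid floppase, at −0.46 ± 0.13 (limma, adjusted p = 0.125). Of 15 regulators tested, 2 were higher and 0 lower, against 5.4% and 7.99% of all genes, and Mafg, a small Maf protein known as an FXR target, was at 0.65 ± 0.21 (limma, adjusted p = 0.175).

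Markers of other cells and of liver zones were read beside these values. Stellate cell markers summed to 179 to 188 CPM in WT input and 202 to 277 in KO, without overlap, and none of the 4 tested passed in edgeR. Reln was the largest part of that sum, with 105 to 135 CPM in WT and 140.0 to 192 in KO (log2 change in RPF 0.45 ± 0.14, limma, adjusted p = 0.140). Without Reln, left out after its values were seen, the other 4 summed to 47.4 to 73.2 in WT and 59.0 to 84.5 in KO and overlapped, and Lrat, the retinol-esterifying enzyme of these cells, had 14.8 to 36.6 and 15.0 to 33.5. Pdgfrb was also higher in every KO mouse, with 32.8 to 34.9 normalized reads in WT input and 41.2 to 52.0 in KO. In RPF so were Pdgfrb (50.3 to 57.5 and 68.8 to 75.6) and Colec11 (75.3 to 95.0 and 105.7 to 122.9). Over all genes, 3.65% were higher throughout in input and 6.97% in RPF. Pdgfrb and Colec11 were named after their values were seen. Summed Kupffer markers (193 to 269.6 in WT, 169 to 279 in KO), endothelial markers (238 to 289 and 252 to 325) and lymphoid markers (9.06 to 21.2 and 10.4 to 19.8) overlapped. Of the endothelial list, Lyve1 had 3.41 to 16.0 normalized reads in WT RPF and 18.1 to 25.8 in KO (log2 change 1.39 ± 0.51, limma, adjusted p = 0.239). Clec4g was lower in every KO mouse in RPF and Pecam1 in input, against 12.9% and 5.6% of all genes. Clec4g and Pecam1 were named after their values were seen. Pericentral genes summed to 7398 to 9004 in WT and 7106 to 10317 in KO, and periportal genes to 12490.1 to 16072 and 12151 to 17493. In RPF, Rgn of the pericentral list was at −0.55 ± 0.17 (limma, adjusted p = 0.140) and Cyp2f2 of the periportal list at −0.57 ± 0.15 (adjusted p = 0.089). Their part in the values of the bile acid genes was not tested.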

How the data were processed

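Livers of 3 WT and 3 KO mice gave 12 libraries, whose genotype and litter the labels give. The authors' deposited input file holds counts of read pairs per gene. The submitters' processing notes name STAR 2.7.3a and featureCounts 1.6.0, and the file header gives featureCounts 2.0.3 with strand used. The build was mm10. RPF reads were mapped by the authors with RiboToolkit. The authors' deposited table holds a normalized signal, described as RPKM: in every column 100% of values were whole multiples of a single value to within 0.01 reads, so the signal is the number of reads times a constant of the library, with no length in it, and the reads of the input columns were exactly the counts in 100% of genes. It also holds the authors' TE fold changes, p-values and adjusted p-values, which were not used. No column was left without a sample. Genes of the count file were named through the reference (55141 of 55487), and 1 of 32 cell type markers, Tf, found no match.

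Input counts were tested with edgeR 4.0.16 in R 4.3.3 (TMM, filterByExpr, robust quasi-likelihood test). For RPF and TE, limma 3.58.1 (trend and robust) was fitted to log2(value + 1) of genes whose mean reached 10 in both assays, with 4 group means and TE as the interaction. A fold change on that scale understates changes of low genes. P-values are two-sided and adjusted over all genes tested by Benjamini-Hochberg. The design assumed normalized values, and edgeR on the recovered reads was run beside it. The fits were tested on simulated data. Genes named were the 10, Mettl5, and of each list those that passed or, if none did, the 1 with the smallest p in RPF. The hepatocyte, cholangiocyte, Kupffer and lymphoid markers are given as sums alone. Other names were chosen after values were seen. The 10 genes, the lists and the tests were chosen with earlier results of these data known.

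The labels mark mice of a litter by a shared number, so the mice are paired. Deviations from group means correlated between the littermates of litters 1, 2 and 3 (0.082, 0.127 and 0.100 in input, 0.242, 0.144 and 0.195 in RPF). The study states no litter term, so the fit without it comes first. Replicates were not duplicates, since chi-square over its degrees of freedom was 5.41 to 37.7 between mice of a genotype. Alternatives were RLE factors, DESeq2 1.42.0, other filters and pseudocounts, centred columns, rRNA genes removed, blocks of litter and of mouse, CDS GC and length trends removed, RPF columns alone and leaving out each mouse.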

Additional observations from a re-analysis of the deposited data

How the results depend on the processing

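None of the 10 genes passed under any alternative, apart from Cyp7b1 in input and in RPF without KO mouse 3. Of 440 values of single genes under alternatives, 411 had an unchanged direction and call. With the replicate block of litter (the paired fit) 0 of the 10 genes passed, while the genes called over all genes rose from 0 to 2 in input, from 44 to 236 in RPF and from 0 to 1 in TE. The block turned Cyp8b1 in input to −0.066 on the log2 scale. DESeq2 called 1 gene and no count filter 30 in input. In RPF the GC trend removed left 12 genes and RPF columns alone 23, and GC and length trends removed with the block gave 1 gene in TE. Abcb11 in RPF turned to 0.044 with the GC trend removed and to 0.0018 with GC and length trends removed and the block. Nr0b2 in TE turned to −0.0071 with a pseudocount of 5, to −0.20 with the GC trend removed and to −0.17 with both trends removed and the block. The range of WT RPF levels per length over the 10 genes was 8.03-fold over CDS length and 16.6-fold over exon length.

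Leaving out each mouse gave 0 to 21 genes called in input and 0 to 226 in RPF, 0 without KO mouse 2 and 226 without KO mouse 1, and 0 to 1 of the 10 genes in input and in RPF. Log2 changes that turned had ranges of −0.14 to 0.89 (Cyp7a1, RPF), −0.21 to 0.21 (Cyp8b1, RPF), −0.43 to 0.049 (Cyp7b1, TE), −0.0011 to 0.28 (Cyp8b1, TE), −0.073 to 0.15 (Nr0b2, TE), −0.10 to 0.037 (Slc27a5, TE), −0.082 to 0.22 (Baat, input), −0.090 to 0.031 (Cyp27a1, input), −0.49 to 0.28 (Cyp8b1, input), −0.080 to 0.076 (Slc10a1, input) and −0.11 to 0.030 (Slc27a5, input). Without a turn, Cyp7a1 in input ran from 0.093 to 1.46, Cyp7b1 in input from −1.39 to −0.26 and Nr0b2 from −1.14 to −0.17 in input, with a range of −1.10 to −0.14 in its RPF. The causes were not tested. Counting error was largest for Nr0b2, with 38 to 102 read pairs per input library.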

Other observations

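Hsd3b7, the second enzyme of the classic pathway, had a ratio of RPF to input far from that of the other genes. Its input was 20.2, 23.5 and 9.18 normalized reads in WT and 19.7, 19.9 and 24.0 in KO, whereas its RPF was 3028, 2379 and 2923 in WT and 3484, 2879 and 3540 in KO. The ratio was 101 to 318 in WT and 144 to 177 in KO, against 1.09 to 3.96 over the 10 bile acid genes. In the count file 62.0% of its exon bases were shared with Gm49388 on the same strand, and 62.4% with 9430064I24Rik on the opposite strand. For the 10 genes the share on the same strand was 0%. The part of shared exons in the input count of Hsd3b7 was not tested.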
